A study of Mus musculus with 12 samples.

Results

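This section describes 599 antisense non-annotated long noncoding RNA (lncRNA) loci of differentiating mouse embryonic stem cells (ESCs), out of 22187 loci with a normalised value. A locus was chosen when the authors' transcript assembly gave it at least 1 transcript lying antisense to an annotated gene (class code x), no transcript that matches or is a splice variant of an annotated gene (class codes = and j), and a spliced transcript (2 exons or more) of 200 bases or longer. Of 79655 assembled loci, 3865 had a class x transcript, 3782 of these had no transcript of class = or j, 1050 also held a transcript of the required structure, and 599 of those were in the normalised table. The remaining 451 had a median of 0.113 CPM (counts scaled by library size) in their highest group, and single loci among them reached 113 CPM. The sense gene of a locus is the gene that the assembly named for its class x transcripts. No difference between groups entered this choice, but the authors filtered the normalised table on a mean FPKM (CPM per kilobase of exons) in at least 1 group, so that a locus could pass through its highest group alone. By the summed exon length of a locus, 353 of the 599 were above 0.1 FPKM in a group and 246 were not. The length behind the authors' filter is not given in the sources used here.

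RNA-Seq of poly(A) RNA was performed on 12 libraries of a reporter ESC line with C57BL/6 given as its background, which carries an EGFP cassette at the start site of the endogenous Eomes gene. The ESC group held 4 libraries of undifferentiated cells at day 0, grown on mouse embryonic fibroblast feeders. Hanging-drop embryoid bodies of that line were dissociated at day 3 and sorted by EGFP into 4 Eomes-positive (Eo+) and 4 Eomes-negative (Eo-) libraries, so that all groups carry the reporter allele and derive from a single line. The libraries are named by the replicate numbers 1, 2, 5 and 6, and each held 648413022 to 837308168 counts on loci. Eomes is a T-box factor that marks and specifies mesendoderm. The summed level of 6 mesendoderm markers was 90.6 to 284 CPM in ESC, 251 to 512 CPM in Eo- and 1721 to 3004 CPM in Eo+ libraries, and all 6 were called higher in Eo+ than in Eo- cells. The summed level of 10 feeder fibroblast markers was 104 to 255 CPM in ESC libraries, 36.0 to 50.7 CPM in Eo- and 28.6 to 57.5 CPM in Eo+ libraries, and 9 of the 10 were called lower in Eo+ than in ESCs. Fbn1 was not (11.7 CPM in ESCs, 14.3 CPM in Eo+). In Eo- vs ESC 7 were called lower and 1 higher, Thy1 at 21.5 CPM against 13.9 CPM. Of the list, S100a4 reached 0 in an Eo+ library, from 11.8 CPM in ESCs. Whether fewer cells of a type or less RNA per cell lowers a level cannot be told apart in bulk RNA.

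Antisense transcripts are made from the strand opposite to another gene and can overlap its promoter, its exons or its end. Divergent transcripts start near the promoter of the sense gene and run away from it, and convergent ones run towards it from beyond its end. Some natural antisense RNAs are known to act on their sense gene in cis, through chromatin, transcriptional interference or pairing with the sense RNA, whereas others only mark an active promoter or enhancer.

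The promoter sequence could be shown where a RefSeq window (GRCm38.p6, from 250 bases before to 50 bases after an annotated start) held an assembled start of a locus. Such windows existed for 60 of the 599 loci. For 32 loci they belonged to a gene annotated on the same strand, and for 23 to the sense gene itself. The 5 windows below belong to loci described in the results, namely the antisense loci of Eomes, Bmp4, Calcr and Pkd1l2 and the locus within RP23-400A19.2. Each is written 5′ to 3′ on the strand of the antisense locus, and capitals mark bases inside its assembled exons. The windows of Bmp4 and Calcr are shown shortened, to 280 and 248 of 300 bases, to leave out untranslated sequence.
antisense to Eomes, XLOC_073724, chr9:118489730-118490029, minus strand: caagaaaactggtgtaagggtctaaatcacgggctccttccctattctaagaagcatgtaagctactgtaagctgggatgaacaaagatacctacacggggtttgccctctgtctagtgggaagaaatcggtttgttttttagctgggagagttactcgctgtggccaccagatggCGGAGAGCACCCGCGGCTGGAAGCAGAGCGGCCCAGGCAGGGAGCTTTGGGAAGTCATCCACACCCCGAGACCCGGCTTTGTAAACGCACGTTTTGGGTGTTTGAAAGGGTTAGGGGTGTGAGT
antisense to Bmp4, XLOC_021402, chr14:46390640-46390919, plus strand: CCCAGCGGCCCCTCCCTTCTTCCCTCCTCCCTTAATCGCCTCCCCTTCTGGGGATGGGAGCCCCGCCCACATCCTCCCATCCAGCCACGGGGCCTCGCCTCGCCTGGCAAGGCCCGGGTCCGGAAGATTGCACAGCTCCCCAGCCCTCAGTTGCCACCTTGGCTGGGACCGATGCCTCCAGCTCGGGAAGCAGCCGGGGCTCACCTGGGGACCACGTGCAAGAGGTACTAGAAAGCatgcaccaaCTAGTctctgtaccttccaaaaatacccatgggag
antisense to Calcr, XLOC_056647, chr6:3763601-3763848, plus strand: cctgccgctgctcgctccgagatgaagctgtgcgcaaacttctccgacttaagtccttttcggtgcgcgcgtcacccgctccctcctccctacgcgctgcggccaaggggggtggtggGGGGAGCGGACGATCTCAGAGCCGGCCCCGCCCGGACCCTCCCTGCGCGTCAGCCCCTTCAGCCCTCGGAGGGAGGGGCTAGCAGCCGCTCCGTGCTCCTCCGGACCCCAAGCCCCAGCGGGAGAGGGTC
antisense to Pkd1l2, XLOC_068122, chr8:117018828-117019127, plus strand: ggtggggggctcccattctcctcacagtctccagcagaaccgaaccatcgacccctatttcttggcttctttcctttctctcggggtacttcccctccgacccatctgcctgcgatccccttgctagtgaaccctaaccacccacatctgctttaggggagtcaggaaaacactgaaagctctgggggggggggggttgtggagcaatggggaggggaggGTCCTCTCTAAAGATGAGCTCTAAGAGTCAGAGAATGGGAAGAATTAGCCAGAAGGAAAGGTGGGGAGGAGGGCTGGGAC
antisense to RP23-400A19.2, XLOC_001553, chr1:119305493-119305792, plus strand: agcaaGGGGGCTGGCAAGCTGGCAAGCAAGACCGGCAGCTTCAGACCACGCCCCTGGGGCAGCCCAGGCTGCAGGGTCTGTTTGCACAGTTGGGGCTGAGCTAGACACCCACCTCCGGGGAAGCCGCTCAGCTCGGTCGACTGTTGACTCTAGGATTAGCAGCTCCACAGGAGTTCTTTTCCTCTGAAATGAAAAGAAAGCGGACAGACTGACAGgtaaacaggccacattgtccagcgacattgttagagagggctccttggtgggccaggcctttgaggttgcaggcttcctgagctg
The Eomes antisense window is that of Gm33460, a RefSeq gene starting at position 118489779, and the assembled start lay at 118489853, 74 bases before it. The Bmp4 window is that of Bmp4 itself, whose annotated start at 46390669 lies 12 bases from an assembled start of the antisense locus at 46390681, and 241 of the 280 bases shown are in capitals. The Calcr window belongs to Gm33576, with an assembled start at 3763719. The RefSeq window of Calcr itself also held this start, 96 bases before the annotated start of Calcr. The windows of Pkd1l2 and RP23-400A19.2 belong to Gm31519 and Gm33388. Over the whole windows of 300 bases, the GC content was 52.7% in the Eomes antisense window, 64.0% in that of Bmp4, 69.3% in that of Calcr, 56.7% in that of Pkd1l2 and 58.3% in that of RP23-400A19.2, and its median was 52.7% over 32817 windows of the table. On either strand, the letters GGGCGG (GC box) occurred in the Bmp4 and Calcr windows and in 35.6% of all windows. None of the 5 held the letters TATAAA, found in 13.6% of all windows. None held the motif of the CCAAT box, found in 37.4%. The T-box half-site, searched as AGGTGTGA and found in 1.27%, was likewise in none of them.

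The arrangement of an antisense locus and its sense gene was head-to-head in 170 loci (the antisense locus starts within the gene and runs out past its start), tail-to-tail in 118 (it reaches into the gene from beyond its end), inside the gene in 122 and spanning it, past both ends, in 189. The starts of 69 head-to-head loci lay within 1000 bases of the annotated sense start. Class x did not always mean shared exons. Only 240 of the 599 loci shared exonic bases with the named sense gene, from 1 to 2584 with a median of 223.5, and the other 359 shared none. At 148 loci the class x transcripts had no exon at all within the span of the sense gene. Sense genes were protein-coding for 394 loci, lncRNAs for 87, pseudogenes for 78 and small RNAs for 36. Among the protein-coding ones, 78 shared bases with coding sequence, 76 with a 5′ UTR and 49 with a 3′ UTR.

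Structures were simple, with at most 2 exons in 323 loci and up to 16 in others, and a median summed exon length of 1224 bases. Of 1882 introns, 23 in 18 loci were mirrored, that is, they had the same ends as an intron of the opposite strand. The splice dinucleotides of 98 introns could be read from reference transcripts and promoters. On the antisense strand, 75 began with GT and ended with AG, 5 began with GC and ended with AG, 9 began with CT and ended with AC (GT and AG when read on the sense strand) and 9 had other pairs. At 11 loci the transcripts had several exons only through an exon of under 10 bases. An intron of a same-strand transcript in the later GENCODE release M21 was shared by 42 loci.

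Expression was low. The mean of the highest group was at least 1 CPM in 84 loci and at least 0.5 CPM in 158, with a median of 0.192 CPM, and 202 stayed under 0.1 CPM in every group. Together the 599 accounted for 0.0379% to 0.0552% of a library's counts, apart from replicate 1 of Eo+ at 0.123%. Without XLOC_029059, the most abundant locus, the range was 0.0338% to 0.0489%. Per length, the median level of the antisense loci was 0.101 FPKM in ESC, 0.0667 FPKM in Eo- and 0.0495 FPKM in Eo+ cells. For the 394 loci whose sense locus was also in the normalised table, the antisense level was a median of 24.7% of the sense level in ESCs, 22.5% in Eo- and 12.4% in Eo+ cells. It exceeded the sense level in 117, 119 and 112 of these pairs. ESCs were the highest group for 292 of the 599 loci (48.7%, against 41.6% of all tested loci), Eo- for 187 (31.2% against 22.3%) and Eo+ for 120 (20.03% against 36.1%). These shares are given as a description with no test.

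Over all 599, antisense loci fell more often than they rose in each comparison. In Eo+ vs ESC, which asks what changes when pluripotent cells enter the mesendoderm, 369 of the 599 were called at a limma adjusted p of at most 0.05, 117 higher and 252 lower in Eo+ cells. Over all 22187 tested loci, 68.5% were called, 33.0% higher and 35.6% lower, against 61.6%, 19.5% and 42.1% of the antisense loci. These shares, and those of the comparisons below, are a description, and their differences were not tested. The antisense loci had a median log2 fold change of -0.46, against -0.02 over all tested loci. The ESC libraries also held more of the feeder markers (104 to 255 CPM, against 28.6 to 57.5 CPM in Eo+) and of the pluripotency markers (2553 to 3340 CPM, against 440 to 791 CPM in Eo+), of which 5 of 5 were called lower, as were 4 of 5 neuroectoderm markers (sums of 48.8 to 95.5 CPM, against 45.3 to 84.4 CPM in Eo+). The part of these in the falls was not tested.

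In Eo- vs ESC, which follows the cells of the same cultures without reporter signal, 339 antisense loci were called, 133 higher and 206 lower. The background was 57.8% called, 28.2% higher and 29.6% lower, against 56.6%, 22.2% and 34.4% of the antisense loci. The median log2 fold change was -0.07, against 0.01 over all tested loci. Here 4 of 5 pluripotency markers (sums of 1259 to 1639 CPM in Eo-, against 2553 to 3340 CPM in ESCs) and 4 of 5 neuroectoderm markers were called lower. The neuroectoderm sums were nevertheless 63.5 to 125 CPM in Eo-, against 48.8 to 95.5 CPM in ESCs. Nes, the most abundant of the 5, was not called (94.3 CPM against 61.3 CPM, limma adjusted p = 0.0538). The part of these markers was likewise not tested. Eo+ and Eo- cells differed at 233 antisense loci, 44 higher and 189 lower in Eo+. Here the background was 42.8% called, 20.0% higher and 22.8% lower, while the antisense loci were at 38.9%, 7.35% and 31.6%, with a median of -0.54 against -0.03. Markers of other cell types moved with these falls. All 5 pluripotency markers were called lower in Eo+ than in Eo- cells, with summed levels of 440 to 791 CPM against 1259 to 1639 CPM, as were 4 of 5 neuroectoderm markers, with sums of 45.3 to 84.4 CPM against 63.5 to 125 CPM. Their part in the falls was not tested. The comparisons share libraries, so their counts are not independent of each other. Intergenic non-annotated loci of the same structure (2762 loci) were called higher at 17.6% and lower at 52.6% of loci from ESC to Eo+, and at 9.34% and 32.2% between Eo- and Eo+ cells.

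**Figure D1:**
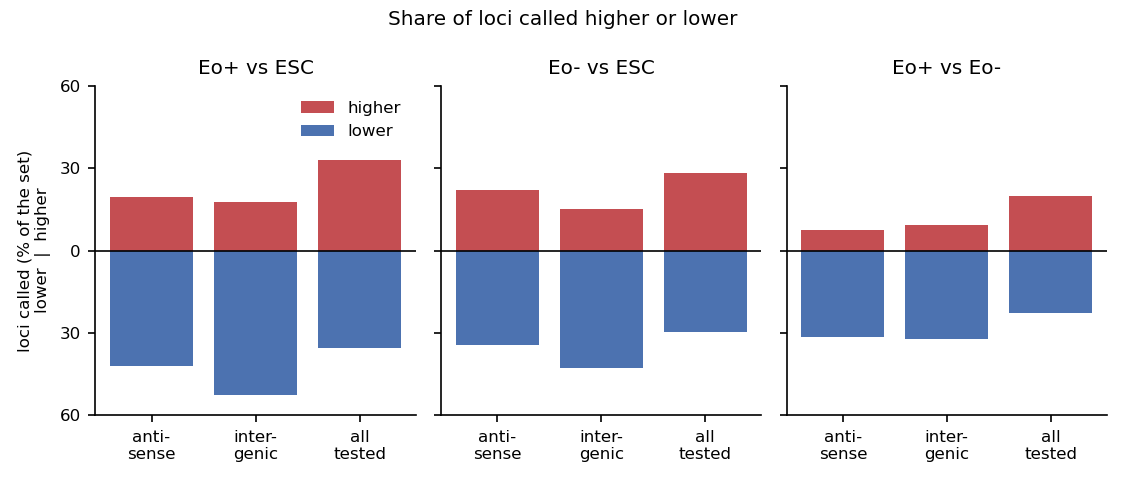
Share of loci called higher (red, upward) or lower (blue, downward) by limma in the 3 comparisons, as a percentage of 599 antisense non-annotated loci, 2762 intergenic non-annotated loci and all 22187 tested loci. The antisense loci have more falls than rises in each comparison, with the widest gap in Eo+ vs Eo- (189 lower, 44 higher).

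By arrangement, the falls in Eo+ vs ESC made up 27.6% of head-to-head loci, 45.1% of loci inside the sense gene, 47.5% of tail-to-tail and 49.7% of spanning loci, and the median log2 fold changes were -0.01, -0.93, -0.66 and -1.02. Head-to-head loci rose more often than they fell in Eo- vs ESC (47 higher, 35 lower), unlike the other arrangements (86 higher, 171 lower). Among the 84 loci with at least 1 CPM in a group, 25 rose and 38 fell in Eo+ vs ESC and 9 rose and 37 fell in Eo+ vs Eo-, but more rose (30) than fell (25) in Eo- vs ESC, with a median log2 fold change of 0.03. At 62 loci all Eo+ libraries were at or under 3 counts while all ESC libraries were above (10.4%, against 3.54% of all tested loci). The opposite was seen at 1 locus (0.167%, against 0.203%). A locus near 0 in one group is in the normalised table through a group where it was higher, so these counts are a description.

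The largest rises in Eo+ cells were at loci with an ESC mean of at most 0.0961 CPM. XLOC_018019, tail-to-tail with Trpc7 (a cation channel gene), lies at chr13:56763722-56773183 on the plus strand and shares 71 exonic bases with it. Its level was 0.0301, 0.0238, 0.0243 and 0.00889 CPM in ESC libraries 1, 2, 5 and 6, 0.147, 0.0751, 0.0801 and 0.132 CPM in Eo- and 0.574, 0.543, 0.979 and 0.648 CPM in Eo+ libraries, with no overlap between groups. It rose by 4.99 ± 0.46 (log2, SE) in Eo+ vs ESC (adjusted p = 3.45e-07) and by 2.66 ± 0.32 over Eo- cells (adjusted p = 2.05e-05). Trpc7 itself stayed at 0.0406 ± 0.0132 CPM or less (SD, n = 4) and was not called in Eo+ vs ESC (1.16 ± 0.60, adjusted p = 0.101). The antisense locus thus exceeded the sense gene per length in the 3 groups.

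XLOC_048183 lies inside Slc24a2, the gene of a potassium-dependent sodium and calcium exchanger, at chr4:87012295-87105074. It held 1.36, 1.40, 1.25 and 1.502 CPM in Eo+ libraries, 0.175 to 0.195 CPM in Eo- and 0.0282 to 0.201 CPM in ESCs. The Eo+ libraries lay far above both other groups, which overlapped each other, and the rise in Eo+ vs ESC was 4.19 ± 0.39 (adjusted p = 3.79e-07). Slc24a2 rose as well, by 2.04 ± 0.35 (adjusted p = 0.000122). XLOC_020542, which spans the small nuclear RNA gene Gm24870 and shares introns with the lncRNA gene Gm30551, rose by 6.18 ± 0.97 to 0.649 ± 0.299 CPM. XLOC_000013, over the small nuclear RNA gene Gm25493, rose by 8.08 ± 1.57 but from at most 0.0064 CPM in ESCs, and its Eo+ libraries spread from 0.127 to 1.01 CPM. Neither small RNA had a tested sense locus.

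The loci with the largest falls from ESC to Eo+ cells were nearly silent in the latter. XLOC_023369 spans Trav13-3, a T cell receptor variable segment listed as a pseudogene, at chr14:53725280-53736472 on the minus strand. It held 2.46, 2.65, 4.09 and 2.22 CPM in ESC libraries, 0, 0.0155, 0 and 0.00513 CPM in Eo- and 0 in all Eo+ libraries. Against a floor of 3 counts per library, the level in ESCs was at least 685-fold higher than in Eo+ cells. XLOC_027269, spanning the immunoglobulin segment Iglv1, fell from 1.98 ± 0.36 CPM in ESCs to 0.196 ± 0.0814 in Eo- and 0.0014 ± 0.0028 CPM in Eo+ cells. XLOC_059190, spanning Sva, fell from 2.14 ± 0.729 to 0.0861 ± 0.0236 and 0.00389 ± 0.00678 CPM. In ESCs XLOC_024400, spanning the small RNA gene Gm23033, held 0.977 ± 0.293 CPM, and each Eo+ library had 0 or 1 count of it. None of the sense genes of these 4 was in the normalised table, and the 4 antisense loci shared no exonic base with them.

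In Eo- vs ESC the leading rises were at receptor, exchange factor and glycoprotein genes. XLOC_056647 (chr6:3763719-3807430), whose start lies in the window shown above, shares no exonic base with Calcr. By the outline of Calcr in the assembly, it begins 994 bases inside the gene and runs out past its start. By RefSeq, it begins 96 bases before an annotated start of Calcr. Calcr encodes the calcitonin receptor. The antisense level was 0.117, 0.145, 0.248 and 0.0504 CPM in ESCs, 1.93, 2.08, 3.18 and 1.90 CPM in Eo- and 0.968, 0.881, 1.85 and 0.751 CPM in Eo+ libraries. Every library of either fraction exceeded every ESC library. The rise in Eo- vs ESC was 4.16 ± 0.43 (adjusted p = 2.14e-06), and Calcr rose from 2.11 ± 0.888 to 12.03 ± 2.56 CPM (2.57 ± 0.30, adjusted p = 7.49e-06). Both were lower in Eo+ than in Eo- cells, by log2 values of -1.08 ± 0.30 for the antisense locus and -1.32 ± 0.27 for Calcr, although the former had an adjusted p of 0.0504 with edgeR (0.00996 with limma).

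Arhgef15, a guanine nucleotide exchange factor, has the head-to-head locus XLOC_010044 on 1214 shared exonic bases (chr11:68953825-68962492). It held 0.799, 0.745, 0.732 and 1.02 CPM in ESCs, 8.07, 7.85, 8.23 and 6.98 CPM in Eo- and 6.97, 6.74, 6.34 and 6.57 CPM in Eo+ libraries. The groups of day 3 did not overlap ESCs, and the rise in Eo- vs ESC was 3.25 ± 0.14 (adjusted p = 1.95e-09) against 1.69 ± 0.20 (adjusted p = 9.25e-06) for Arhgef15. The ratio of antisense to sense rose by 1.57 ± 0.18 on the log2 scale (adjusted p = 6.16e-06). XLOC_051413, head-to-head with the kainate receptor subunit gene Grik3, rose from 0.47 ± 0.201 to 3.66 ± 0.579 CPM, while Grik3 rose from 23.8 ± 4.46 to 59.2 ± 5.15 CPM. XLOC_063865, over the pregnancy-specific glycoprotein gene Psg16, rose from 0.529 ± 0.246 to 4.79 ± 1.53 CPM (3.23 ± 0.36, adjusted p = 4.9e-06), and Psg16 was not called (-0.11 ± 0.35, adjusted p = 0.801).

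Among the leading falls in Eo- vs ESC, XLOC_001553 inside the lncRNA gene RP23-400A19.2 held 2.02, 3.62, 1.77 and 5.75 CPM in ESCs, 0.0376 to 0.122 CPM in Eo- and 0.101 to 0.233 CPM in Eo+ libraries. Its log2 fold change was -5.68 ± 0.60 (adjusted p = 2.99e-06). XLOC_050416, spanning the pseudogene Gm12495, was at 0.418 to 0.803 CPM in ESCs and at most 0.0426 CPM in any Eo- library. XLOC_068122, inside the polycystin family gene Pkd1l2, fell by 5.35 ± 0.61 (adjusted p = 5.8e-06) and is described with its sense gene below.

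Between the sorted fractions, the rises of at least 0.5 CPM were led by the loci at Gm25493, Gm24870, Slc24a2 and Trpc7, and the falls by loci already lower in Eo- cells than in ESCs. XLOC_059491, spanning the pseudogene Gm15534, stepped down from 4.36 ± 0.841 CPM in ESCs to 0.701 ± 0.101 in Eo- and 0.0295 ± 0.0216 CPM in Eo+ cells. This last level was lower than that of Eo- cells by a log2 value of -4.93 ± 0.52 (adjusted p = 7.48e-06). XLOC_018209, spanning the lncRNA gene Gm17514, stepped down from 2.65 ± 0.206 to 1.17 ± 0.0715 and 0.0709 ± 0.0343 CPM. XLOC_077898 lies tail-to-tail with Tsx, an X-linked gene near the X inactivation centre, and went from 1.38 ± 0.515 to 0.547 ± 0.12 and 0.0217 ± 0.0161 CPM, with Tsx at 13.7 ± 1.73, 4.29 ± 0.202 and 2.21 ± 0.578 CPM.

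**Figure D2:**
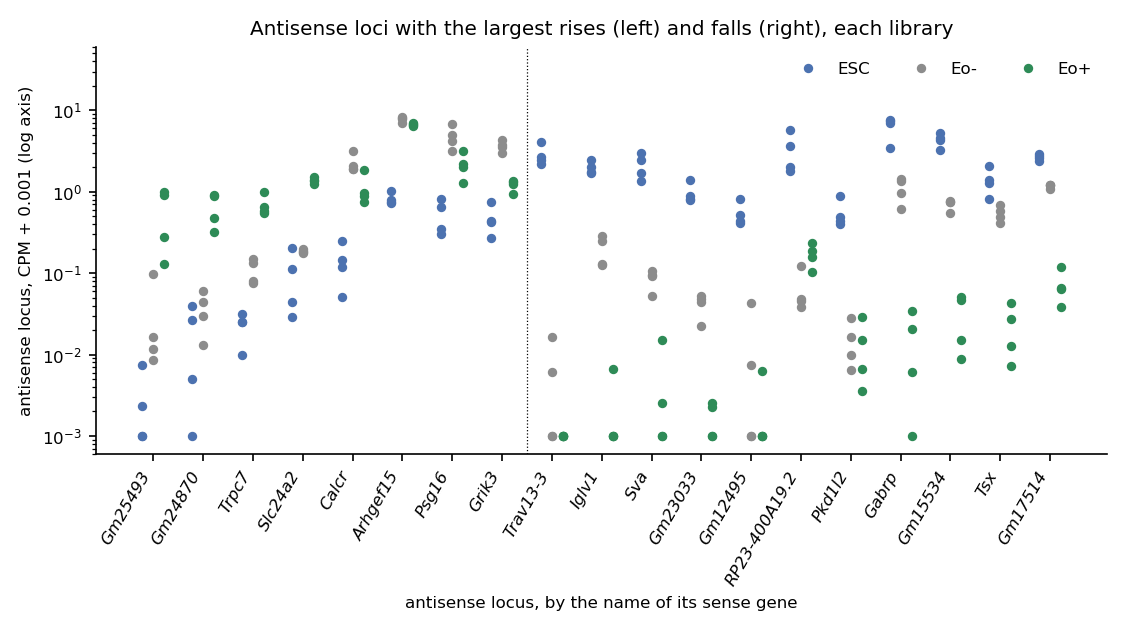
Level of the 8 antisense loci with the largest rises (left of the dotted line) and the 11 with the largest falls (right) over the 3 comparisons, each named by its sense gene, with each point 1 library (ESC blue, Eo- grey, Eo+ green) and CPM plus 0.001 on a log axis. Falls reach 0 counts in Eo+ libraries at Trav13-3, whereas the Arhgef15 locus lies between 6.34 and 8.23 CPM in all day 3 libraries.

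Of 197 genes in 6 lists (pluripotency, mesendoderm, cardiac mesoderm, neuroectoderm, chromatin and imprinting, signalling), 5 sense genes of antisense loci are described here. These were the transcription factors Eomes and Hand1, the ligands Bmp4 and Fgf3 and the 5-methylcytosine oxidase Tet2. In Eo+ vs ESC the 5 antisense loci were called, 2 higher (Eomes, Hand1) and 3 lower. Of all 22187 tested loci, 68.5% were called in this comparison. In Eo- vs ESC 1 was called higher (Eomes), 3 lower (Bmp4, Tet2 and Fgf3) and 1 was not called (Hand1). The share called there over all tested loci was 57.8%. With the replicate number as a block, the Hand1 locus was called there (adjusted p = 0.0249) and the Fgf3 locus was not (adjusted p = 0.0678). In Eo+ vs Eo- 2 were called higher (Eomes and Hand1), 1 lower (Fgf3) and 2 were not called (Bmp4 and Tet2). Here 42.8% of all tested loci were called. The counts of these 5 loci were not tested against such shares.

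The Eomes antisense locus XLOC_073724 (chr9:118485339-118489853, minus strand) overlaps the 3′ end of Eomes tail-to-tail on 2484 exonic bases, of which 794 fall in the 3′ UTR given by GENCODE, and matches introns of Gm33460. Its level was 0.584, 0.720, 1.01 and 0.811 CPM in ESCs, 2.48, 3.10, 2.84 and 2.67 CPM in Eo- and 4.13, 7.60, 5.82 and 7.17 CPM in Eo+ libraries. The order ESC, Eo-, Eo+ held without overlap between groups. In Eo+ vs ESC it rose by 2.97 ± 0.23 (adjusted p = 7.89e-08), and in Eo+ vs Eo- by 1.12 ± 0.20 (adjusted p = 0.000446). Eomes, the gene that the sort selects, rose more, by 3.53 ± 0.16 and 1.94 ± 0.15, so the ratio of antisense to sense fell by 0.55 ± 0.18 (adjusted p = 0.0138) and by 0.82 ± 0.18 (adjusted p = 0.00237). There were 17.0 antisense counts per 1000 Eomes counts in ESCs, 20.1 in Eo- and 11.6 in Eo+ cells. The median over exon-overlapping pairs was higher, at 63.1 in ESC, 54.5 in Eo- and 38.3 in Eo+ cells. At the low end, the exon-sharing pair with the lowest ratio in ESCs, at Bri3, had 6 antisense counts to 92895 sense counts (0.0646 per 1000). The Nav2 pair, with 499 shared bases, had 0 to 31459 in Eo+ cells.

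Hand1, a basic helix-loop-helix factor of the heart and extraembryonic mesoderm, is spanned by XLOC_009814 (chr11:57827796-57842084, plus strand), which shares no exonic base with annotated Hand1 and 11 with its assembled locus. It held 0.107, 0.0647, 0.220 and 0.0785 CPM in ESCs, 0.456, 0.207, 0.0882 and 0.272 CPM in Eo- and 2.09, 1.25, 0.642 and 1.73 CPM in Eo+ libraries. All Eo+ libraries were above all others, and ESC and Eo- libraries overlapped. It rose by 3.62 ± 0.56 in Eo+ vs ESC (adjusted p = 4.82e-05) and by 2.56 ± 0.48 in Eo+ vs Eo- (adjusted p = 0.0007). Hand1 held 121, 35.2, 18.0 and 75.0 CPM in the Eo+ libraries, in the same order of libraries as the antisense locus, and rose by 4.71 ± 0.87 (adjusted p = 0.000238).

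At Bmp4, a ligand of the TGF-beta superfamily, antisense and sense fell together in Eo- cells. In Eo+ cells the antisense locus fell and Bmp4 was not called. XLOC_021402 (chr14:46390626-46399407, plus strand) starts 43 bases inside Bmp4, overlaps 44 bases of its 5′ UTR and runs out through the window shown above. It held 0.658, 0.805, 0.755 and 1.17 CPM in ESCs, 0.217, 0.185, 0.185 and 0.169 CPM in Eo- and 0.326, 0.0995, 0.115 and 0.248 CPM in Eo+ libraries. Both fractions lay below every ESC library, with log2 fold changes of -2.24 ± 0.33 in Eo+ (adjusted p = 3.3e-05) and -2.12 ± 0.32 in Eo- cells (adjusted p = 7.06e-05). Bmp4 was at 29.2 ± 7.1 in ESCs, 12.3 ± 5.2 in Eo- and 48.4 ± 34.6 CPM in Eo+ cells. It was called lower in Eo- than in ESCs (-1.30 ± 0.48, adjusted p = 0.0327) and not called in Eo+ vs ESC (0.47 ± 0.41, adjusted p = 0.326). It was higher in Eo+ than in Eo- cells by 1.76 ± 0.47 (adjusted p = 0.008), while the antisense locus was not called there (-0.12 ± 0.38, adjusted p = 0.831). The ratio of antisense to sense fell by 2.72 ± 0.34 in Eo+ vs ESC (adjusted p = 6.19e-06) and by 1.88 ± 0.34 in Eo+ vs Eo- (adjusted p = 0.000582).

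Fgf3, a fibroblast growth factor of the primitive streak, showed the widest divergence of the 5. Its tail-to-tail antisense locus XLOC_066420 (chr7:144840794-144857814, minus strand) shares no exonic base with it. The antisense level was 0.130, 0.0740, 0.0576 and 0.129 CPM in ESCs, 0.0402, 0.0609, 0.0557 and 0.0244 CPM in Eo- and 0.00511, 0.0157, 0.00841 and 0.0110 CPM in Eo+ libraries, while Fgf3 itself was at 1.42, 1.68, 1.28 and 1.43 CPM in ESCs and 114, 107, 32.3 and 116 CPM in Eo+ libraries. The Eo+ libraries were thus the lowest for the antisense locus and the highest for the gene. The log2 fold changes in Eo+ vs ESC were -3.21 ± 0.55 (adjusted p = 0.000119) and 5.83 ± 0.72 (adjusted p = 5.84e-06). The antisense call in Eo- vs ESC was lost without ESC 1 (adjusted p = 0.0947), ESC 6 (adjusted p = 0.0766), Eo- 1 (adjusted p = 0.0711) or Eo- 6 (adjusted p = 0.118).

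Tet2 and its antisense locus fell together. XLOC_044881 (chr3:133543900-133585111, plus strand) starts 490 bases inside Tet2, runs out past its start and held 0.0313, 0.0528, 0.0064 and 0.0667 CPM in ESCs, 0.00355, 0.0117, 0 and 0 CPM in Eo- and 0 in the 4 Eo+ libraries. Against a floor of 3 counts per library, the level in ESCs was at least 9.43-fold higher than in Eo+ cells. Tet2 fell from 33.8 ± 8.92 to 2.80 ± 0.727 CPM (-3.57 ± 0.26, adjusted p = 4.01e-08).

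**Figure D3:**
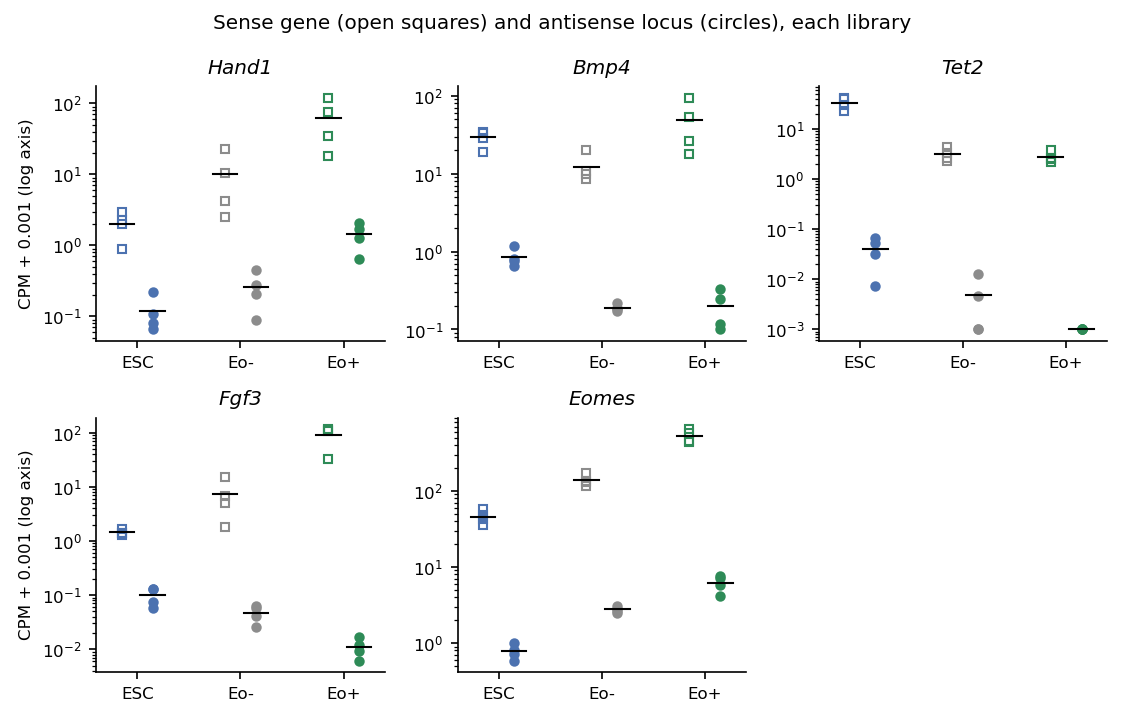
Level of 5 listed sense genes (open squares) and their antisense loci (circles) in each library of ESC (blue), Eo- (grey) and Eo+ (green), as CPM plus 0.001 on a log axis, with the mean of 4 libraries as a bar. Eomes and Hand1 rise with their antisense loci, Fgf3 rises to 92.3 CPM in Eo+ cells while its antisense locus drops to 0.0100 CPM, and the Tet2 antisense locus is at 0 in all Eo+ libraries.

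Where the sense locus was tested as well, antisense and sense more often changed in the same direction than in opposite directions. In Eo+ vs ESC, 176 of the 394 pairs had both loci called, of which 118 (67.0%, exact 95% interval 59.6% to 73.9%) had the same direction, 39 with both higher and 79 with both lower. In Eo- vs ESC it was 103 of 140 (73.6%, 65.5% to 80.7%), and in Eo+ vs Eo- 72 of 94 (76.6%, 66.7% to 84.7%), 17 with both higher and 55 with both lower. Opposite changes from ESC to Eo+ were 17 with antisense higher and 41 with antisense lower. Between the fractions they were 1 and 21. The intervals cover counting over pairs only, which are not independent replicates. Where exons overlapped (188 pairs), the share was 69.9%, 72.2% and 84.8% in Eo+ vs ESC, Eo- vs ESC and Eo+ vs Eo-, and other opposite-strand pairs of tested loci with overlapping exons gave 66.0%, 70.8% and 75.0%. Where they did not (206 pairs), it was 63.9%, 75.0% and 68.8%, and other such pairs gave 59.8%, 61.1% and 64.5%. These differences were not tested. Across the 394 pairs, the log2 fold changes had a Pearson correlation of 0.35 (Eo+ vs ESC), 0.30 (Eo- vs ESC) or 0.36 (Eo+ vs Eo-), a description over pairs measured in the same libraries. Other opposite-strand pairs with overlapping exons were at 0.37, 0.30 and 0.39.

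**Figure D4:**
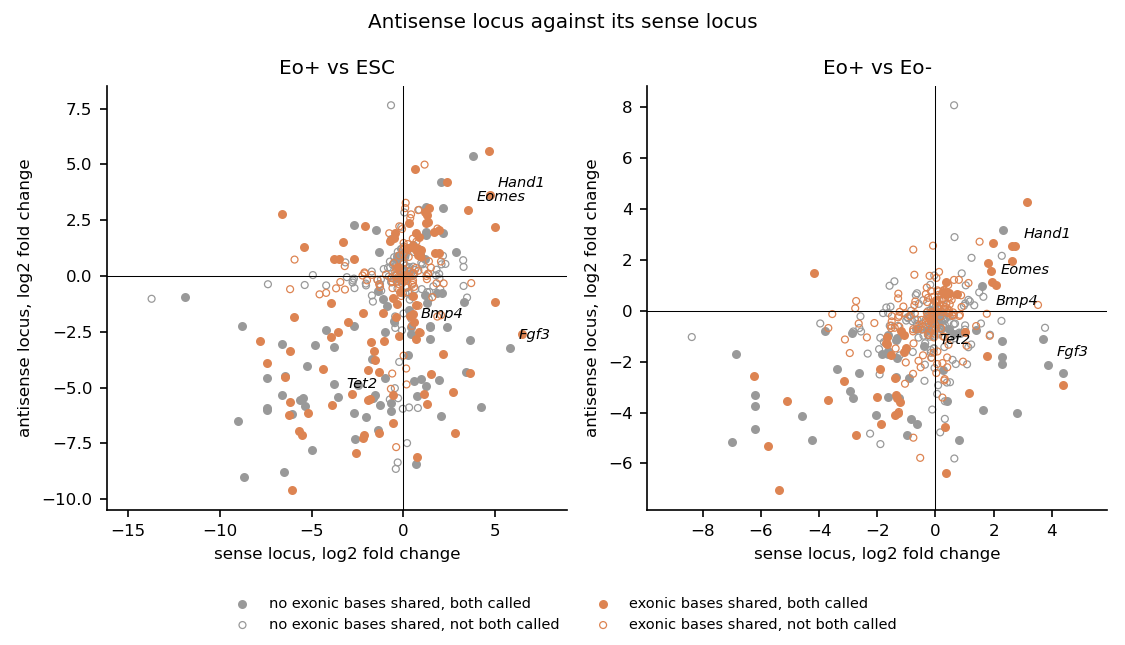
Log2 fold change of 394 antisense loci (vertical axis) against their sense loci (horizontal axis) in Eo+ vs ESC (left) and Eo+ vs Eo- (right), orange for pairs whose exons overlap, filled where both loci were called. More filled points lie in the quadrants of equal sign (118 of 176 on the left, 72 of 94 on the right), and Fgf3 lies among those with a falling antisense locus and a rising sense gene.

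By arrangement, head-to-head pairs changed in the same direction in 44 of 54 cases in Eo+ vs ESC (81.5%, 68.6% to 90.7%), in 37 of 43 in Eo- vs ESC (86.0%, 72.1% to 94.7%) and in 24 of 26 in Eo+ vs Eo- (92.3%, 74.9% to 99.1%). Pairs with the antisense locus inside the gene gave 56.5% of 46, 63.9% of 36 and 64.3% of 28, tail-to-tail pairs 59.6% of 52, 75.6% of 41 and 69.6% of 23, and spanning pairs did so in 17 of 24, 12 of 20 and 14 of 17 cases (82.4% for the last). The difference between arrangements was not tested, and several of the intervals overlap. In Eo+ vs ESC the Pearson correlation of the log2 fold changes was 0.59 over 141 head-to-head pairs, 0.28 over 108 pairs inside a gene, 0.25 over 91 tail-to-tail pairs and 0.39 over 54 spanning pairs. In the same order it was 0.44, 0.37, 0.23 and 0.13 in Eo- vs ESC and 0.62, 0.16, 0.24 and 0.58 in Eo+ vs Eo-.

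**Figure D5:**
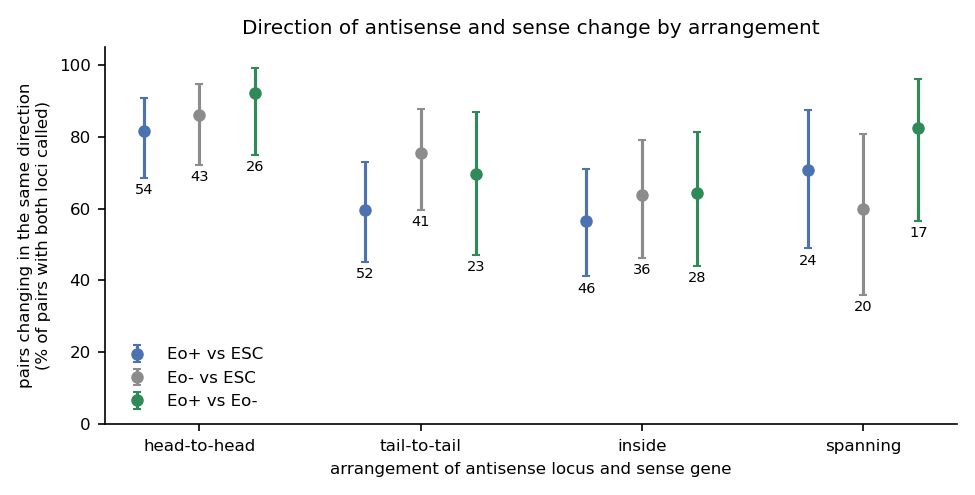
Share of pairs with both loci called in which antisense and sense changed in the same direction, by arrangement and comparison, with exact 95% binomial intervals and the number of pairs under each interval. Head-to-head pairs lie at 81.5% to 92.3% and pairs inside a gene at 56.5% to 64.3%, and spanning pairs reach 82.4% in Eo+ vs Eo-.

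The ratio of antisense to sense was tested in pairs whose assembled exons overlap, since a ratio within a library removes what both strands share. It changed in 124 of 188 antisense pairs in Eo+ vs ESC, 59 with antisense gaining and 65 losing, against a background of 60.9% of 3357 opposite-strand pairs. In Eo- vs ESC 90 changed (51 and 39, background 49.9%) and in Eo+ vs Eo- 57 (20 and 37, background 34.8%). The shares of the antisense pairs were 66.0%, 47.9% and 30.3%, near that background. The median size of the change in Eo+ vs ESC was 1.48 on the log2 scale in the antisense pairs and 0.74 over all pairs. Of the 599 antisense loci, 148 had 0 counts in at least 1 library, and the part of low counts in this difference was not tested.

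Where exons overlapped and both loci were called, 28 of 93 antisense pairs changed in opposite directions in Eo+ vs ESC, 20 of 72 in Eo- vs ESC and 7 of 46 in Eo+ vs Eo-. Other opposite-strand pairs with overlapping exons gave 492 of 1448, 291 of 997 and 131 of 524. A called ratio and at least 0.5 CPM in the higher group of both loci were also required for the pairs named here. This left 10, 5 and 0 antisense pairs. The widest was at Stag1, a cohesin subunit gene, whose tail-to-tail antisense locus XLOC_073424 (chr9:100956075-100969590) shares 295 exonic bases. It held 1.96, 1.47, 1.53 and 1.40 CPM in ESCs, 0.457, 0.409, 0.612 and 0.416 CPM in Eo- and 0, 0.00785, 0.0504 and 0.00314 CPM in Eo+ libraries. The groups did not overlap, and Stag1 went the other way, from 61.4 ± 2.5 to 80.0 ± 6.96 and 102.9 ± 5.75 CPM. The ratio fell by 8.84 ± 0.87 in Eo+ vs ESC (adjusted p = 4.32e-07).

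Senp7, a protease for SUMO chains, holds XLOC_029043 inside it (chr16:56111748-56116328, minus strand), with 56 shared coding bases. The antisense level was 7.20, 7.29, 8.55 and 8.005 CPM in ESCs, 1.28, 1.13, 1.51 and 1.33 CPM in Eo- and 0.330, 0.389, 0.514 and 0.265 CPM in Eo+ libraries, whereas Senp7 rose from 3.34 ± 0.244 to 7.34 ± 1.43 and 9.71 ± 2.37 CPM. The antisense counts per 1000 Senp7 counts went from 2319 in ESCs to 177 in Eo- and 38.3 in Eo+ cells. The ratio fell by 5.92 ± 0.22 in Eo+ vs ESC (adjusted p = 1.3e-11) and by 3.69 ± 0.22 in Eo- vs ESC (adjusted p = 1.08e-08).

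Klhl4, a kelch family gene, rose from 0.278 ± 0.0435 to 9.72 ± 5.39 CPM in Eo+ cells while XLOC_078053, which shares only 14 exonic bases with it, went from 1.18 ± 0.407 to 0.518 ± 0.155 CPM (-1.19 ± 0.31, adjusted p = 0.00339). In the reverse sense, the antisense locus of Cpsf4l, a gene related to a cleavage and polyadenylation factor, rose while the gene fell. XLOC_011141 held 0.696, 0.591, 0.787 and 0.446 CPM in ESCs and 0.945, 0.924, 1.04 and 0.873 CPM in Eo- libraries, and Cpsf4l fell from 29.8 ± 4.74 to 4.73 ± 0.922 CPM. The ratio rose by 3.27 ± 0.26 in Eo- vs ESC (adjusted p = 1.87e-07). At Catsperd, a subunit gene of the sperm calcium channel, XLOC_032296 rose from 0.725 ± 0.0495 to 2.46 ± 0.183 CPM in Eo- cells and Catsperd fell from 2.59 ± 0.976 to 1.42 ± 0.276 CPM.

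Among pairs that changed together, Gabrp (a GABA-A receptor subunit gene) and its tail-to-tail locus XLOC_009424 (chr11:33534736-33575765) had the widest fall in Eo+ vs ESC. The antisense locus held 7.37, 7.54, 3.40 and 6.95 CPM in ESCs, 0.965, 1.44, 1.37 and 0.606 CPM in Eo- and 0.00511, 0.0196, 0.0336 and 0 CPM in Eo+ libraries, and the 3 groups did not overlap. Gabrp stepped from 0.602 ± 0.124 to 0.369 ± 0.0656 and 0.00946 ± 0.0047 CPM, so that per length the antisense locus was above the gene in every group. The log2 fold changes in Eo+ vs ESC were -9.60 ± 1.08 (adjusted p = 2.38e-06) and -6.08 ± 0.52 (adjusted p = 1.67e-07). XLOC_022171, head-to-head with the lncRNA gene 4930444M15Rik, fell by 6.94 ± 0.52 (adjusted p = 5e-08) and the gene by 5.66 ± 0.25 (adjusted p = 4.76e-10), and their ratio was not called (adjusted p = 0.0689). XLOC_068122 inside Pkd1l2 went from 0.555 ± 0.225 to 0.0126 ± 0.0114 CPM in Eo+ cells, with Pkd1l2 going from 2.24 ± 0.714 to 0.170 ± 0.0878 CPM. In Eo+ vs Eo- the leading pairs besides Hand1 were a rise at Lor, the loricrin gene (antisense XLOC_044268, 1.88 ± 0.31, and Lor, 1.79 ± 0.35), and a fall at BC055111 (antisense XLOC_048464, -1.74 ± 0.29, and the gene, -1.53 ± 0.36). The Lor antisense locus has 3 mirrored introns.

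Among the 6 most abundant antisense loci, XLOC_016712 lies head-to-head with the polyadenylation factor gene Cpsf2, shares introns with Ndufb1-ps and held 45.0 ± 6.6 CPM in ESCs, 57.4 ± 9.57 in Eo- and 55.2 ± 9.51 CPM in Eo+ cells. XLOC_031137, at the start of Scaf8, rose from 18.9 ± 2.23 to 34.6 ± 2.97 and 36.8 ± 2.18 CPM (0.97 ± 0.10 in Eo+ vs ESC, adjusted p = 7.3e-07), while Scaf8 was not called (0.01 ± 0.07, adjusted p = 0.932). It shares introns with Gm21926, and both XLOC_016712 and XLOC_031137 have mirrored introns. XLOC_000012, which spans the pseudogene Gm6085 without a shared exonic base, was at 35.1 ± 4.27, 24.2 ± 1.74 and 20.8 ± 2.02 CPM. The paper describes a lncRNA of this name near Sox17 as specific to ESCs. XLOC_031076 (tail-to-tail with the follicle stimulating hormone receptor gene Fshr) was at 25.002 ± 2.03, 27.2 ± 2.14 and 21.4 ± 1.84 CPM. At Slc7a11, the cystine and glutamate antiporter gene, XLOC_043657 rose by 0.76 ± 0.20 in Eo+ vs ESC (adjusted p = 0.00381) and the gene fell by 2.71 ± 0.36 (adjusted p = 1.3e-05), but this locus has a second exon of under 10 bases.

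The most abundant of all was XLOC_029059 inside Filip1l, with 124, 167, 80.6 and 73.2 CPM in ESCs, 45.2, 56.6, 49.5 and 38.7 CPM in Eo- and 863, 49.8, 41.4 and 41.1 CPM in Eo+ libraries. Its Eo+ mean therefore rests on replicate 1. It was not called by limma in any comparison, and edgeR called it higher in Eo+ than in Eo- cells (adjusted p = 0.0353). Without replicate 1 of Eo+ it was lower than in ESCs both in Eo+ (limma adjusted p = 0.000519) and in Eo- cells (limma adjusted p = 0.000529). The loci of Gm26917 (5461 CPM in replicate 1 of Eo+, 368 to 594 CPM in the other Eo+ libraries), Lars2 (809 CPM, 57.8 to 89.3 CPM) and Mir6236 (188 CPM, 3.69 to 6.16 CPM) were raised in the same library. Cmss1, like XLOC_029059 on chromosome 16, was not (42.9 CPM, 41.2 to 46.8 CPM). The part of whatever raised these loci in the level of XLOC_029059 was not tested. These 4 genes were chosen after their values were seen.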

How the data were processed

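Poly(A) RNA of 12 libraries was sequenced as stranded read pairs. Per the labels and methods, the authors mapped reads to mm10 (GRCm38) with STAR, assembled transcripts with Cufflinks 2.2.1 and counted reads per locus with HTSeq 0.6.1 in a strand-aware mode. The STAR version differs between sources. The deposited raw counts hold 80012 loci without scaling. The deposited normalised table gives 22187 loci kept by the authors' filter on FPKM, with a signal scaled by library size (CPM), and was used for membership. The deposited annotation gives exons and class codes. Coding potential was not scored here. The members and lists were chosen with earlier results of these data known.

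Counts of the 22187 loci were fitted with limma 3.58.1 (voom, TMM factors from edgeR 4.0.16, R 4.3.3), with 1 mean per group and two-sided moderated tests. P-values were adjusted by Benjamini-Hochberg over all loci of a comparison and called at 0.05 or less. Adjusted p-values are from limma unless named otherwise. CPM are scaled by TMM and given as mean ± SD (n = 4), and log2 fold changes as estimate ± SE. The log2 ratio of antisense to sense (prior of 0.5 counts) was fitted with limma over 3357 opposite-strand pairs with overlapping exons, of which 188 hold an antisense locus and its sense locus. The fits were tested on simulated data.

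Named loci are, per comparison, the 4 largest rises and falls among called loci whose higher group reached 0.5 CPM and whose libraries did not overlap. They are also the 6 highest by mean CPM, those with a listed sense gene (1 is not reported here), and per comparison the 3 leading pairs called in opposite and in the same direction. Introns and biotypes were read from GENCODE M21 and promoters from RefSeq, both on GRCm38. A genome sequence was not used here.

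Per the methods, the 12 libraries came from 4 separate differentiations, and the labels give the numbers 1, 2, 5 and 6 in each group, which were taken to mark these. Same-numbered Eo- and Eo+ libraries deviated together (correlations of 0.29 to 0.63 across loci), and those of ESC with either fraction had correlations of -0.17 to 0.48. The fit reported has no block. Values with the block are given where it changed a call. A count of 3 equals 0.00355 to 0.00470 CPM, for counting error only, as reads carry no molecular identifiers, and 57.6% of counts from 2 to 49 were even. Alternatives were other tests, scalings, filters, pairs and members, the replicate block and each library left out.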

Additional observations from a re-analysis of the deposited data

Results flagged for a closer look

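Among 117 groups of 4 libraries of the named antisense loci, 20 held a library far from the other 3, where chance gives about 1 in 20 groups. The largest gap in level was at the Filip1l locus XLOC_029059, at 863 CPM in Eo+ 1 and 41.1 to 49.8 CPM in the others. Replicate 5 stood apart at the loci of Calcr (Eo- 5, 3.18 CPM), Cpsf2 (Eo- 5, 71.6 CPM), Klhl4 (Eo- 5, 0.424 CPM), Gabrp (ESC 5, 3.40 CPM), Lor (ESC 5, 2.73 CPM), Gm6085 (Eo+ 5, 23.8 CPM), Stag1 (Eo+ 5, 0.0504 CPM), Sva (Eo+ 5, 0.0140 CPM) and Iglv1 (Eo+ 5, 0.00560 CPM). Replicate 6 did so at Gm23033 (ESC 6, 1.41 CPM), BC055111 (ESC 6, 1.42 CPM), RP23-400A19.2 (Eo- 6, 0.122 CPM), Gm15534 (Eo- 6, 0.551 CPM) and Gm17514 (Eo- 6, 1.07 CPM). Replicate 2 did so at Slc7a11 (ESC 2, 11.8 CPM), Klhl4 (ESC 2, 1.79 CPM) and Gm12495 (Eo+ 2, 0.00523 CPM). Replicate 1 did so at Gm25493 (Eo- 1, 0.0959 CPM) and Gm12495 (Eo- 1, 0.0426 CPM). Several of these levels, such as those at Iglv1 and Gm12495 in Eo+ cells, rest on a few counts.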

How the results depend on the processing

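Filters moved the counts of called antisense loci, and also the number of loci tested. Of the 599 loci of the main fit, 353 passed a filter of 0.1 FPKM. Shares over all loci under the filters are not given here. With a filter of 0.1 FPKM, 72 were higher and 153 lower in Eo+ vs ESC, 128 lower in Eo- vs ESC, and 26 higher and 125 lower in Eo+ vs Eo-. With at least 1 CPM in 4 libraries these were 20 and 34, 25 and 25, and 6 and 34, and the ratio changed in 20, 14 and 11 pairs. Over all pairs with overlapping spans, an alternative added after seeing the data, it changed in 246, 181 and 131 of 394 (62.4%, 45.9% and 33.2%, against 61.2%, 49.7% and 35.4% of 4712 pairs). The same-direction share with 50 or more shared exonic bases was 74.7% (Eo+ vs ESC) or 87.8% (Eo+ vs Eo-), and 60.4% (Eo- vs ESC) or 64.0% (Eo+ vs Eo-) over all pairs, called or not. The cause was not tested.

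Without each library in turn, 104 to 120, 96 to 148 and 31 to 46 loci were higher and 240 to 258, 195 to 211 and 153 to 194 lower in Eo+ vs ESC, Eo- vs ESC and Eo+ vs Eo-. The ratio changed in 114 to 123, 75 to 98 and 49 to 62 pairs, and the same-direction share was 67.0% to 70.5%, 69.9% to 75.0% and 75.0% to 80.6%. With the replicate block, 124 and 253, 142 and 212, and 46 and 210 loci were higher and lower, 126, 93 and 59 ratios changed, and the shares were 68.0%, 69.7% and 76.5%. In the fractions alone, the block gave 52 and 208. Among the loci described, the block called XLOC_001553 (limma adjusted p = 0.0100) and XLOC_000012 (limma adjusted p = 0.0196) in Eo+ vs Eo-, XLOC_000013 (limma adjusted p = 0.00536) and XLOC_009814 (limma adjusted p = 0.0249) in Eo- vs ESC and XLOC_016712 (limma adjusted p = 0.0172) in Eo+ vs ESC. It lost XLOC_066420 in Eo- vs ESC (limma adjusted p = 0.0678) and changed no other call among them.

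Of single loci, XLOC_029059 reversed in Eo+ vs ESC with edgeR (1.16) and the replicate block (0.11), and ranged from -1.25 to 0.24 with a library left out, where it reversed without ESC 2 (0.057), Eo+ 2 (0.15), Eo+ 5 (0.24) or Eo+ 6 (0.22). In Eo+ vs Eo- it ranged from -0.085 to 1.41, and reversed without Eo+ 1. In that comparison XLOC_068122 ranged from -0.96 to 0.12 and reversed without Eo+ 2, XLOC_016712 ranged from -0.12 to 0.053 and reversed without Eo+ 2 (0.042) or Eo- 5, and XLOC_021402 was at 0.060 with edgeR, ranged from -0.43 to 0.16 and reversed without Eo+ 2 or Eo+ 5 (0.093). None of these was called by limma with all libraries. Of the other values of named loci, 1574 kept direction and call, 29 lost the call and 22 gained it.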
